A study of Mus musculus with 6 samples.

Results

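The pyramidal cells of the hippocampal CA fields were followed through 8 marker genes: Wfs1, Man1a, Fibcd1 and Spink8 for CA1, Pcp4, Rgs14 and Amigo2 for CA2, and Bok for CA3. Every probeset that the array's annotation gives to 1 of these genes alone was taken, which yielded 10 probesets of 45101 in all. Man1a and Amigo2 had 2 probesets each and the other 6 genes had 1. All 10 passed the filter on low signals that 31075 probesets of the series passed (a mean of 54.7 or more over the 6 arrays). Hippocampal RNA came from 3 male Glud1 Tg mice and 3 age-matched male wt mice of the same C57BL/6 background, all 9 months old and untreated, with 1 Affymetrix Mouse Genome array per mouse. The Tg mice carry glutamate dehydrogenase 1 under the promoter of neuron-specific enolase, so that the transgene is expressed in neurons, and the comparison asked how the hippocampus responds to lifelong moderate glutamate excess. The labels do not give litters or dissection days. The p values weigh the group difference against the spread between these mice, with the variance partly borrowed from other probesets of like signal.

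The CA fields are bands of excitatory pyramidal neurons joined in a chain. Granule cells of the dentate gyrus send mossy fibres to CA3, CA3 cells project to CA1, and CA1 cells are the main output to the subiculum and the cortex beyond it, while CA2 is a small field between CA3 and CA1 with its own inputs. CA1 neurons are known as the most easily injured by glutamate, and CA2 neurons as resistant. The markers are enriched in their field but are not restricted to it, and the RNA was taken from whole hippocampus. A lower signal of a marker can therefore come from fewer cells of that field or from less RNA per cell. It can also come from other cells that express the marker, or from the share of tissue that was dissected. These cannot be told apart here.

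The MAS5 signals had been scaled to a trimmed mean of 500.0 on every array, and the median of the kept probesets was 309.7 to 318.9 on the Tg and 297.3 to 305.4 on the wt arrays. The control for the 3' end of 18S ribosomal RNA gave 975.5 to 3313 on the Tg arrays, but 13960.1 on wt 1 and 10375 on wt 2, against 2286.5 on wt 3. For the Actb control, the 3' signal divided by the 5' signal was 1.64 to 1.69 on the Tg and 1.70 to 1.95 on the wt arrays. Glud1 itself was measured at its brightest probeset at 5116 to 5596 on the Tg and 5647 to 6383 on the wt arrays. Its other kept probeset gave 4639.5 to 5393.8 on the Tg and 5031.1 to 5729.2 on the wt arrays, which overlap. The sources used here do not say whether the transgene's messenger RNA reaches these probesets, so the values check no label, and every direction below rests on the labels.

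Of the 8 genes, 5 had a higher and 3 a lower value on the Tg arrays, with a median log2 fold change of 0.13 at the brightest probeset of each gene, and Man1a, the nearest to 0, turned to a lower value after median centring. That median was 0.071 without Tg 1, 0.082 without wt 3, 0.20 without wt 1 and 0.062 after median centring. Over all kept probesets the median was 0.020, and it was 0.027 without Tg 1, 0.017 without wt 3, 0.019 without wt 1 and -0.0465 after median centring. Centring shifts every probeset of an array by the same constant, so it lowered both medians by the same amount by construction. Of all kept probesets 53.3% were higher as deposited, 48.8% after quantile normalization and 43.1% after median centring of the arrays. Fibcd1, Spink8 and Rgs14 were higher on every Tg array than on any wt array. This holds for 8.60% of all kept probesets, and no marker was lower on every Tg array (6.68% of all). limma called 0 of the 8 genes at an adjusted p under 0.05, and it called 0% of all probesets. Cyber-T, a test the study used, also called 0 of the 8, against 0.212% of all. At an unadjusted p under 0.05 there were 4 of the 8 in limma (Fibcd1, Spink8 and Rgs14 higher, Wfs1 lower), where 9.80% of all kept probesets are (6% higher and 3.81% lower). The number was 1 when Tg 1, wt 2 or wt 3 was left out in turn, and the gene that was left differed (Wfs1, Spink8 and Fibcd1 in that order of arrays). It was 0 without the intensity trend in the variance model and 1, Wfs1, after median centring. The share of all kept probesets at this threshold was not taken in these settings, so these counts have no background beside them. Centring also left 2 genes, Fibcd1 and Spink8, higher on every Tg array, where 5.85% of all kept probesets then are. When the arrays with high 18S signals, wt 1 and wt 2, were left out together, which was decided after seeing the data and leaves wt 3 alone in its group, 6 of the 8 were higher on the mean of the Tg arrays than on wt 3. There 6 of the 8 did not overlap, where 50.6% of all kept probesets do not, so this count says little about the markers.

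**Figure D1:**
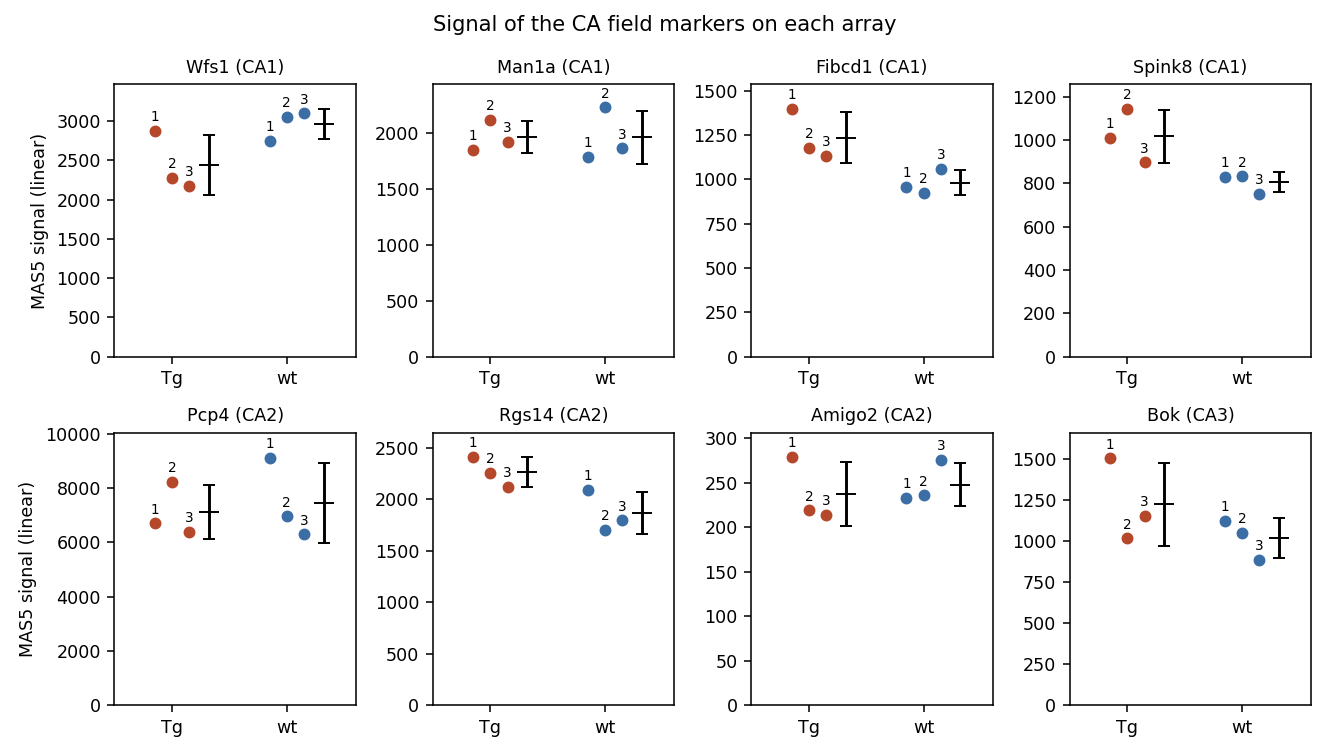
MAS5 signal on a linear scale for each of the 8 CA field markers at its brightest probeset, with 1 point per array, numbered by mouse, Tg left of wt, and the mean ± SD beside each group (n = 3). Fibcd1, Spink8 and Rgs14 show no overlap between Tg and wt arrays, while for Wfs1 the signal of Tg 1 lies inside the wt range.

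The CA1 markers differed among themselves. Wfs1 encodes wolframin, a protein of the endoplasmic reticulum membrane that is abundant in CA1 neurons and is found as well in superficial pyramidal cells of the entorhinal cortex. Its signal was 2876, 2273 and 2171 on the arrays Tg 1, Tg 2 and Tg 3, against 2749.5, 3051 and 3096 on wt 1, wt 2 and wt 3. Tg 2 and Tg 3 lay below all wt arrays, and Tg 1 lay above wt 1. The means (± SD, n = 3 mice) were 2440 ± 381 in Tg and 2966 ± 189 in wt animals, with a log2 fold change of -0.29 (SE 0.114, 95% interval -0.54 to -0.041, limma adjusted p = 0.445). Without Tg 1 the log2 fold change was -0.41.

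Fibcd1 encodes a membrane receptor that binds acetylated structures such as chitin and is enriched in CA1. It gave 1398, 1180.2 and 1132 on the Tg arrays, against 956.6, 925.8 and 1060.2 on the wt arrays. Every Tg array was above every wt array, by the narrowest margin between Tg 3 and wt 3. The means were 1237 ± 142 in Tg and 981 ± 70.4 in wt mice, a ratio of 1.26, and the log2 fold change was 0.33 (SE 0.121, 95% interval 0.061 to 0.59, limma adjusted p = 0.413). Spink8, a predicted serine protease inhibitor of the Kazal type, showed nearly the same size of difference. Its signals were 1008, 1143 and 897 on the Tg arrays, against 830.9, 831.4 and 751.8 on the wt arrays, again without overlap. The means of 1016 ± 123 in Tg and 805 ± 45.8 in wt mice gave a ratio of 1.26 and a log2 fold change of 0.33 (SE 0.127, limma adjusted p = 0.441).

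Man1a encodes a mannosidase that trims sugars from new glycoproteins in the Golgi apparatus. At its brighter probeset it had 1852, 2121 and 1921 on the Tg arrays, against 1789, 2229 and 1864 on the wt arrays, so that the Tg values lay inside the wt range. The log2 fold change was 0.0072 (95% interval -0.23 to 0.25), an interval that leaves room for a fold of 0.851 to 1.19. The dimmer probeset had 801.5, 1090.0 and 937 on the Tg arrays, against 1154.5, 796 and 877 on the wt arrays, with a log2 fold change of 0.0076. The 2 probesets did not order the arrays alike, as wt 1 was the lowest array at the brighter and the highest at the dimmer one.

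Because Wfs1 and Fibcd1 mark the same field and went opposite ways, their difference within each array was also taken, which does not depend on how the arrays were scaled. Relative to the mean of all 6 arrays, Fibcd1 minus Wfs1 on the log2 scale was 0.24, 0.34 and 0.34 on the Tg arrays, against -0.23, -0.43 and -0.26 on the wt arrays. Spink8 minus Wfs1 was 0.056, 0.57 and 0.29 on the Tg arrays, against -0.15, -0.30 and -0.47 on the wt arrays. The Tg and wt arrays did not overlap in either difference, and the group means were 0.61 apart in both. Both pairs were picked with their values in view, and no test was run on them.

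**Figure D2:**
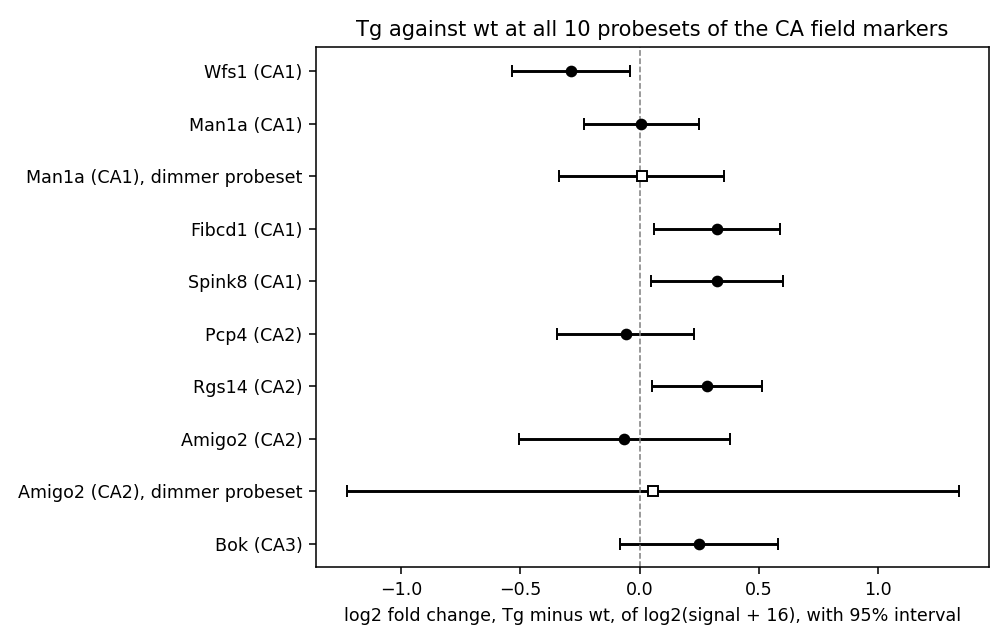
Log2 fold change (Tg minus wt) of log2(signal + 16) at all 10 probesets of the 8 genes with 95% intervals from limma, filled circles for the brightest probeset of a gene and open squares for the dimmer one. Fibcd1, Spink8 and Rgs14 lie between 0.28 and 0.33, Wfs1 lies at -0.29, and the dimmer probeset of Amigo2 has the widest interval, from -1.23 to 1.34.

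The sequence before the transcription start is shown for Wfs1 and Fibcd1, since these 2 markers of one field differed in direction. The RefSeq table of GRCm38.p6 holds a promoter for 6 of the 8 genes. Capitals mark GC boxes, the letters GGGCGG or CCGCCC, which are the same motif read on either strand and are known as sites of Sp1 and related factors. The 250 bases before the start of Wfs1 lie at chr5:36988983-36989232 on the minus strand, those of Fibcd1 at chr2:31846006-31846255 on the minus strand, and both are written 5' to 3'.
Wfs1: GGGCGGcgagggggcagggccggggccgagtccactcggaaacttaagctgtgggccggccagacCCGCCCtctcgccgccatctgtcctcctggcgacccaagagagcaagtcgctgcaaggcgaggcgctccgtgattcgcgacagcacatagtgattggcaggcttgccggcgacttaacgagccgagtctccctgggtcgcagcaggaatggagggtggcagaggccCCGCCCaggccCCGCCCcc
Fibcd1: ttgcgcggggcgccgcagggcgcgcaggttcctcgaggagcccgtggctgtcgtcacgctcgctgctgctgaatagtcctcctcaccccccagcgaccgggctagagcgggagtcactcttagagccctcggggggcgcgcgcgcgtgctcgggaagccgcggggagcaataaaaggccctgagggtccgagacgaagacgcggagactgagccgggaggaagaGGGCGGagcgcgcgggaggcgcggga
The Wfs1 window holds 4 matches and the Fibcd1 window 1, and G and C make up 69.6% and 71.6% of their bases. Of the 6 promoters, 5 have at least 1 match (all but Pcp4, whose window is 46.8% G and C), as do 32.7% of the 32851 promoters of that length in the table. These matches describe the letters only.

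The CA2 markers also differed among themselves. Rgs14 encodes a regulator of G protein signalling that is known to limit synaptic plasticity in CA2 neurons. Its signals were 2409, 2259 and 2118 on the Tg arrays, against 2091, 1700.4 and 1794 on the wt arrays. All Tg arrays were above all wt arrays, although Tg 3 and wt 1 were close. The means were 2262 ± 146 in Tg and 1862 ± 204 in wt mice, a ratio of 1.21, with a log2 fold change of 0.28 (SE 0.106, 95% interval 0.051 to 0.51, limma adjusted p = 0.419). This probeset is in the study's list of differential probesets, which was chosen on these samples, so its direction is not independent evidence. After median centring, the Tg and wt values of Rgs14 overlapped and the log2 fold change was 0.22.

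Pcp4 encodes a small protein that binds calmodulin, and it is strong in CA2 and present in granule cells of the dentate gyrus. It had 6695, 8227 and 6394 on the Tg arrays, against 9117, 6956 and 6285 on the wt arrays, and wt 1 and wt 3 were the highest and the lowest of all 6. The log2 fold change of -0.059 (95% interval -0.35 to 0.23) was smaller than the spread between mice. It was 0.095 when wt 1 was left out.

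Amigo2 encodes an adhesion protein with leucine-rich repeats that outlines CA2 and part of CA3. It was the dimmest of the 8 genes on these arrays, which says nothing of its level against that of other genes, since each probeset has its own response. Its brighter probeset gave 279, 218.9 and 214 on the Tg arrays, against 232, 235.5 and 275 on the wt arrays. Tg 2 and Tg 3 were below all wt arrays, and Tg 1 was the highest of all 6. The log2 fold change was -0.064 (95% interval -0.51 to 0.38), and without Tg 1 it was -0.18. The dimmer probeset ranged from 15.3 to 105.1 on the Tg and from 33.2 to 58.9 on the wt arrays, so that the Tg arrays alone spanned more than the wt range, and its log2 fold change was 0.054 (95% interval -1.23 to 1.34). Its means of 61.3 in Tg and 49.7 in wt mice lie close to the filter's limit of 54.7. This value is thus near the floor of the kept signals. Taken within each array, Rgs14 minus Amigo2 was 0.036, 0.27 and 0.21 on the Tg arrays, against 0.081, -0.23 and -0.37 on the wt arrays. Tg 1 lay below wt 1 in this difference, which was also picked with the values in view and not tested.

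Bok encodes a member of the Bcl-2 family that is enriched in CA3 neurons. Its signals were 1507, 1018 and 1155 on the Tg arrays, against 1124, 1051 and 887 on the wt arrays. Tg 1 stood above the other 5 arrays, and Tg 2 lay below wt 1 and wt 2. The means of 1227 ± 252 in Tg and 1021 ± 121 in wt mice gave a log2 fold change of 0.25 (SE 0.152, 95% interval -0.081 to 0.58, limma adjusted p = 0.629). This difference rested largely on Tg 1, without which the log2 fold change was 0.093, and it was 0.37 without Tg 2.

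Across the 8 genes, Tg 1 was the highest of the 6 arrays for 4 (Fibcd1, Rgs14, Amigo2 and Bok) and the lowest for none. wt 3 was the lowest for 3 (Spink8, Pcp4 and Bok) and the highest for 1, Wfs1. The median deviation of the 8 genes from their own 6-array means was 0.18, 0.11 and -0.017 on Tg 1, Tg 2 and Tg 3 on the log2 scale, against -0.016, -0.064 and -0.13 on wt 1, wt 2 and wt 3. Tg 3 and wt 1 were thus nearly level. Within the Tg group the markers did not move together: Tg 1 stood at 0.44 for Bok and at -0.11 for Pcp4, whereas Tg 2 stood at 0.34 for Spink8 and at -0.24 for Wfs1.

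**Figure D3:**
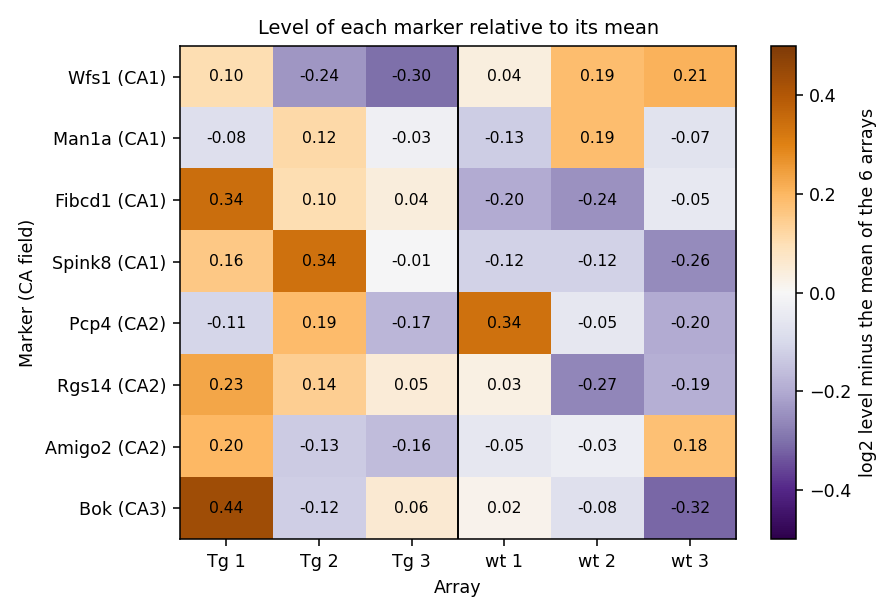
Log2 level of each marker on each array, as log2(signal + 16) minus the mean of the 6 arrays, with the Tg arrays left and the wt arrays right of the line. Fibcd1 and Rgs14 are above 0 on all Tg arrays, and Tg 1 has the highest single value, 0.44 for Bok.

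Further markers of the same fields were counted from a list of 18 genes, chosen like the members with earlier results of these data known. Of these, 15 had a probeset of their own and 14 passed the filter, 10 of them higher and 4 lower on the Tg arrays (median log2 fold change 0.24), and limma called 0. At an unadjusted p under 0.05 in limma there were 2 higher and 1 lower, where 6% and 3.81% of all kept probesets are. Of all kept probesets 53.3% had a higher value on the Tg arrays, with a median log2 fold change of 0.020. The other CA3 markers were higher in 5 of 6 cases, with a median of 0.29. Nectin3, an adhesion protein of CA3, had 1679 ± 262 in Tg and 1229 ± 81.6 in wt mice (log2 fold change 0.44, limma adjusted p = 0.270), without overlap. Cpne4, a calcium-binding protein of the copine family, had 2032 ± 307 in Tg and 1705 ± 156 in wt mice, where Tg 2 lay within the wt range. Neurod6, a transcription factor of CA pyramidal cells in general, had 4500.1 ± 805 in Tg and 3762 ± 293 in wt mice (log2 fold change 0.25, 95% interval -0.017 to 0.51).

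Of the other CA1 markers, 2 of 4 were higher (median 0.099), against 3 of the 4 CA1 members (median 0.17). Ccn3, a secreted matrix protein that is strong in dorsal CA1 and in the subiculum, had 3068, 3747 and 2931.5 on the Tg arrays, against 4021, 4566 and 5011.5 on the wt arrays. Every Tg array was below every wt array, the direction of Wfs1, with a log2 fold change of -0.48 (SE 0.112, limma adjusted p = 0.222). Mpped1, a phosphoesterase, had 1689 ± 102 in Tg and 1757 ± 47.7 in wt mice. Lefty1, a secreted antagonist of Nodal, was chosen after its values were seen, and it had 823 ± 132 in Tg and 555 ± 97.4 in wt mice with no overlap, the direction of Fibcd1 and Spink8. The study lists Lefty1 as up-regulated in these same mice, so its direction is not independent evidence. In CA2, Necab2, a calcium-binding protein, averaged 2239 ± 210.5 in Tg and 2497 ± 68.2 in wt animals, and Cacng5, an auxiliary subunit of glutamate receptors, averaged 350.5 ± 56.5 in Tg and 321 ± 63.1 in wt mice. Besides Nectin3 and Lefty1, the kainate receptor gene Grik4, a CA3 gene chosen after its values were seen, was the third of the 14 that was higher on every Tg array, at 499 ± 58.8 in Tg and 393 ± 59.6 in wt mice. Of all kept probesets, 8.60% are higher on every Tg array. Ccn3 was the 1 of the 14 that was lower on every Tg array (6.68% of all).

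Markers of other regions and cells were counted in the same way, from lists also chosen with earlier results known. Several are among the study's own differential genes, which rest on these mice. Dsp, Npnt, Dock10 and Calb1 are up-regulated there, and Tshz2, Nts, Slc17a6 and Vip down-regulated. The directions of these genes are therefore not independent evidence. The summed signals of 5 marker lists did not overlap between Tg and wt arrays (retrohippocampal cortex, granule cells, interneurons, astrocytes and microglia). A sum is led by its brightest genes, such as Csf1r for microglia (5716.5 of 10255 on Tg 1), and has no background share here. Gene by gene, 3 of 5 retrohippocampal, 3 of 7 interneuron, 3 of 5 astrocyte and 1 of 5 microglia markers were lower without overlap. Over all kept probesets that share is 6.68%. Of the granule cell markers, 6 of 11 were higher without overlap (8.60% of all). The sums of the other 5 lists did overlap: neocortical layers (1 higher, 5 lower), thalamus (3 and 1), striatum (2 and 3), oligodendrocytes (2 and 2) and choroid plexus (0 and 6). Among retrohippocampal markers (subiculum and adjoining cortex), 5 of 6 listed genes were measured, all 5 were lower on the Tg arrays (median log2 fold change -1.03), and their summed signal was 3668 to 4240.3 on the Tg and 5394.5 to 6004 on the wt arrays. Wfs1 and Ccn3, which these regions also express, had lower values too. The part of this tissue in their values was not tested. Tg 1, which had the highest Wfs1 of the Tg arrays, had the lowest sum of this list. That sum was led by Nr4a2 (2134.9 of 3668 on Tg 1), a gene whose Tg and wt values overlapped. The order of the Tg arrays on the sum is therefore not read as bearing on Wfs1. By gene the lowest Tg array differed: Tg 1 for Tshz2 and Nr4a2, Tg 3 for Nts and Slc17a6, and Tg 2 for Fn1. All 11 granule cell markers of the dentate gyrus were higher (median 0.21), with sums of 18083 to 19451 on the Tg and 14149 to 17955 on the wt arrays. Of the 8 CA field markers 5 were higher as well and 3 lower. Pcp4, which granule cells also express, was among the lower ones (log2 fold change -0.059). All 7 interneuron markers were lower (median -0.35, sums of 17802 to 20931.5 on the Tg and 21288 to 26128 on the wt arrays), and 4 of 5 astrocyte markers were lower (median -0.15, sums of 45808 to 47779.9 on the Tg and 51637 to 52661 on the wt arrays). One of these 4, Gja1 (log2 fold change -0.15), is instead among the up-regulated genes of the study. Of the microglia markers, 2 were higher and 3 lower (median -0.067, sums of 10255 to 10682 on the Tg and 10906 to 11919 on the wt arrays). Choroid plexus markers set Tg 3 apart, with a sum of 4444 against 41962 and 65959 on the other Tg arrays and 47677 to 54077 on the wt arrays. Without Tg 3 the log2 fold change was 0.39 for Fibcd1, 0.41 for Spink8 and 0.33 for Rgs14. The part of these cells in the values of the CA field markers was not tested, and limma called 0 genes of these lists.

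**Figure D4:**
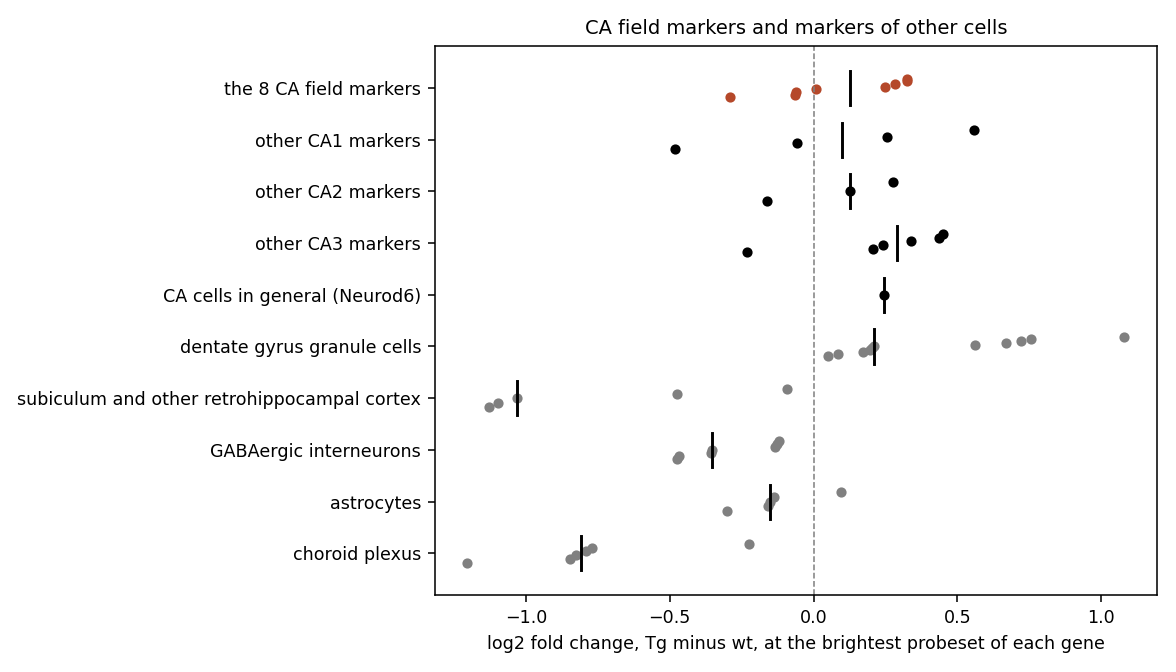
Log2 fold change (Tg minus wt) of the 8 CA field markers (top row), of other CA markers and of markers of other regions and cells, with 1 point per gene at its brightest probeset and a line at each median. The CA field markers spread on both sides of 0 around a median of 0.13, the granule cell markers all lie above 0, and the 5 retrohippocampal ones all lie below 0.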

How the data were processed

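The deposited intensities are MAS5 signals, 1 per probeset and array, not log transformed. The authors had them scaled to a common trimmed mean, and their own lists rest on RMA values of the scanned images with SAM and Cyber-T. Detection calls and images were not used here. The 64 control probesets were set aside, then the lowest 31% of the others by mean signal. After a log2 transform of signal + 16, which shrinks differences of dim probesets, a limma 3.58.1 model of genotype (R 4.3.3, eBayes with trend) gave the Tg minus wt contrast, with Benjamini-Hochberg adjustment over all 31075 kept probesets. The array's annotation gives 1 gene to 34945 probesets, several to 932 and none to 9160. For each gene the kept probeset with the highest mean signal was used. The fit was tested on simulated data with known differences.

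The members and gene lists were chosen with earlier results of these data known. All members are named, then the 2 brightest genes of each further CA list, and any other gene is marked where it appears. The alternatives were constants of 1 and 64, quantile normalization, median centring, no filter or the brightest 50%, no trend, array weights, Cyber-T (window of 101 probesets, confidence of 10), a block for the replicate number, averaging a gene's probesets, and leaving out each array. Leaving out both wt 1 and wt 2, for their 18S signals, was added after seeing the data. Figures were drawn with matplotlib 3.10.9. The number of arrays limits the precision.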

Additional observations from a re-analysis of the deposited data

How the results depend on the processing

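No marker passed the adjusted threshold under any of the 17 alternatives chosen at the start. Wfs1 stayed lower and Fibcd1, Spink8, Rgs14 and Bok stayed higher on the Tg arrays in all 17, with log2 fold changes from -0.41 to -0.21 for Wfs1, 0.24 to 0.39 for Fibcd1, 0.24 to 0.41 for Spink8, 0.22 to 0.37 for Rgs14 and 0.093 to 0.37 for Bok. The sign turned for Man1a with median centring (-0.059) and with array weights (-0.0010), and for Pcp4 with array weights (0.011). Leaving out each array in turn gave -0.055 to 0.10 for Man1a, -0.17 to 0.095 for Pcp4 and -0.18 to 0.0099 for Amigo2. The number of markers at an unadjusted p under 0.05 in limma was 1 with median centring and 0 without the trend, and 1 to 4 with 1 array left out. The share of all kept probesets was not taken for these counts. The number without overlap, which cannot fall when an array is left out, was 3 to 5 with 1 array left out, where 23.5% to 28.6% of all kept probesets do not overlap. The median log2 fold change of the 8 markers was 0.071 to 0.20 with 1 array left out and 0.062 with median centring. That of all kept probesets was 0.011 to 0.027 and -0.0465 in the same settings. Over all probesets, Cyber-T called 66 and limma 0 to 6 with 1 array left out. With the replicate number as a block limma called 1 probeset and no marker. The numbers do not pair the arrays (correlations of -0.017, 0.0077 and 0.033 for arrays of one number), and 3 of the 6 arrays correlated best with the array of its own number. Without both wt 1 and wt 2, an alternative chosen after seeing the data in which wt 3 stands alone and is assumed to vary like the Tg arrays, 2 markers had an unadjusted p under 0.05, 6 did not overlap (50.6% of all kept probesets do not), and Pcp4 had a log2 fold change of 0.17. The cause of these differences was not tested.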
